A study of Homo sapiens with 2 samples.

Results

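The genes described here are the NF-kB subunits and a small group of genes that NF-kB induces, among them its own inhibitors. There are 10 such genes (NFKB1, NFKB2, REL, RELA, RELB, NFKBIA, TNFAIP3, BIRC3, IER3 and ICAM1), chosen by name, and every probe set that the platform annotation assigns to one of them was taken. The annotation gave 20 probe sets, of 54675 on the array, for 9 of the 10 genes, each assigned to that gene alone. It assigned no probe set to BIRC3, whose level is therefore not given. The samples were HT-29 cells, an established line of human colorectal adenocarcinoma, in both culture forms. The spheroid sample was grown from monolayer cells on untreated, low adhesion plates in stem cell media (SCM), which is DMEM/F12 with antibiotic-antimycotic, B27, EGF and FGF, and was collected on day 5. The monolayer sample, labelled wild type (WT), was kept on tissue culture plates in DMEM/F12 with 10% fetal bovine serum and antibiotic-antimycotic. Medium, serum and attachment differed together, so that their parts in any difference cannot be told apart. The values analysed come from 1 array of each condition, of the type Affymetrix Human Genome U133 Plus 2.0, and whether several cultures were pooled for it is not known, so that no difference has a replicate check and no test was possible. RNA was taken from whole cultures, in which fewer cells of a type and less RNA per cell cannot be told apart.

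NF-kB is a family of dimeric transcription factors that share a DNA-binding domain, the Rel homology domain. RELA, REL and RELB carry activation domains, whereas NFKB1 and NFKB2 encode the precursors p105 and p100, which are processed to p50 and p52. In resting cells the dimers are held in the cytoplasm by IkB proteins such as the product of NFKBIA, until the IKK kinases mark these for degradation. Once in the nucleus the dimers bind kB sites and induce, besides inflammatory and survival genes, NFKBIA and TNFAIP3, which shut the response down again. In colonic epithelium and in colorectal cancer the pathway is known for its link to inflammation and cell survival.

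Each value is a MAS5 signal, a linear intensity that the software scales so that the trimmed mean is alike on each array, here 500.1. The median signal was 64.4 on the spheroid array and 61.1 on the monolayer array. Signals under a floor of 62.7, the median over both arrays, were set to it before log2 was taken, and where a gene had several probe sets it was represented by the one whose log2 signal, averaged over both arrays, was highest. A gene was counted as higher or lower at a 2-fold difference, the threshold of the methods. A gene was taken as measured if it exceeded the floor on either array, which held for 13183 genes. In spheroids 2.53% of these were higher by this threshold and 3.08% were lower. The central 95% of the 11555 genes above the floor on both arrays had log2 differences from -1.03 to 0.97, and the SD between probe sets of one gene was 0.41. The hybridisation spike-ins, normally added in equal amounts to each sample, read lower for spheroids in all 18 of their probe sets, by a mean log2 difference of -0.25, and scaling to them raised the median over all genes by 0.23 and gave 5.29% of genes higher and 1.43% lower. The epithelial markers EPCAM (22299 in spheroids and 21151 in monolayer) and KRT18 (22627 in spheroids and 29713 in monolayer) were bright on both arrays, while the intestinal genes varied. KRT20 had 218 in spheroids and 99.6 in monolayer, 2.19-fold higher, CDX2 (80.0) and CEACAM5 (105.5) were above the floor in spheroids alone, VIL1 (100.5) in monolayer alone, and CDX1, LGALS4 and PHGR1 on neither array. PTPRC, the pan-leukocyte marker, was under the floor on both arrays, at 22.4 in spheroids and 25.1 in monolayer. Of the 10 immune markers with a probe set 6 were under the floor on both arrays, and none exceeded 104.3 in spheroids or 122.8 in monolayer.

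Sequence matches to NF-kB binding motifs near the transcription start were a feature most of these genes had in common, and 5 stretches that hold them are shown so that the letters can be set beside the values. RefSeq promoter windows (GRCh38.p14, 250 bases before to 50 after an annotated start) were at hand for 8 of the 10 genes, in 12 windows. RELB and IER3 had no window and were not searched. The stretches below end before the start, and the capitals mark the matches.
REL, chr2:60881507-60881557, plus strand: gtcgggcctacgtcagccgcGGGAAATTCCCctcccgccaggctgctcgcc
NFKB1, chr4:102501290-102501339, plus strand: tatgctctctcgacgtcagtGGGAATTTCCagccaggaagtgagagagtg
NFKBIA, chr14:35404801-35404850, minus strand: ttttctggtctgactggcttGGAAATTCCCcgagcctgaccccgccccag
TNFAIP3, chr6:137867172-137867233, plus strand: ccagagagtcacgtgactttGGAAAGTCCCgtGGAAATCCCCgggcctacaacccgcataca
ICAM1, chr19:10270914-10270962, plus strand: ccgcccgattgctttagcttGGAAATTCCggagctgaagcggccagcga
The searched motifs were the kB consensus, known by that name, and GGAANTTCC, which overlaps it, both on either strand. The kB consensus was found in windows of 6 of the 8 genes, NFKB1, NFKB2, REL, NFKBIA, TNFAIP3 and BIRC3, and in 7.09% of all 27305 genes with a window. GGAANTTCC was found in ICAM1, NFKB1, NFKBIA and REL, against 1.16% of all genes. Neither was found in the 2 windows of RELA. Where the site is nearly a palindrome, as in REL, the 2 strands give overlapping matches. The match in REL lay from -47 to -37 and that in NFKB1 from -49 to -40, counted in bases from the start. NFKBIA had its match from -81 to -72, and ICAM1 from -186 to -178. These are matches of letters in sequence and not measured binding.

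**Figure D1:**
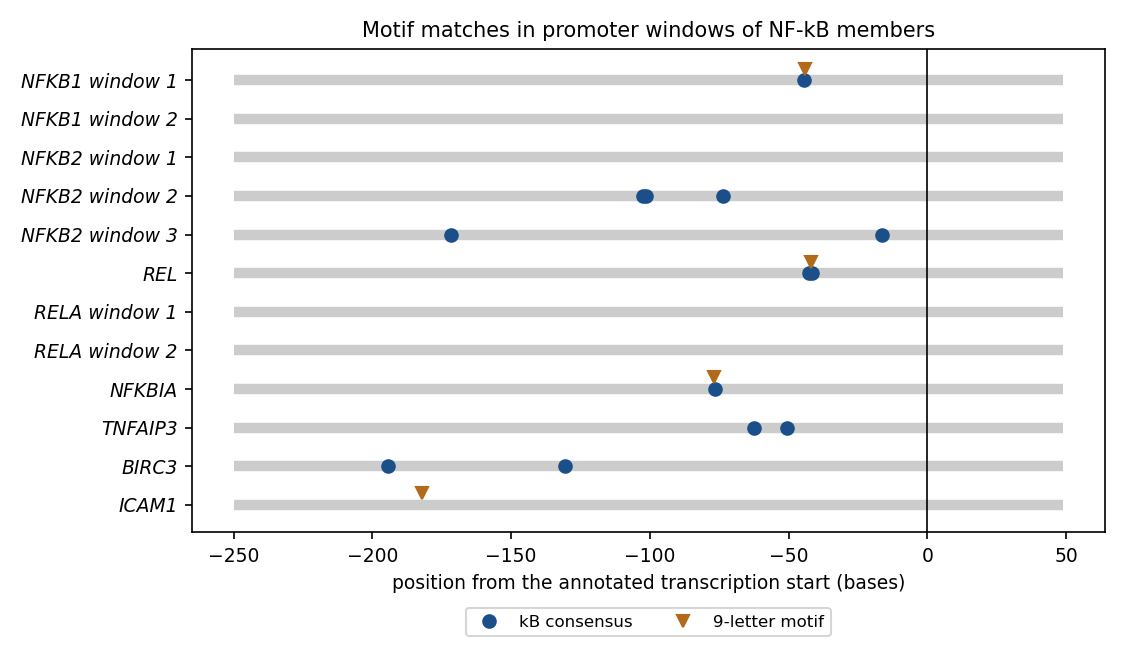
Positions of motif matches in the 12 RefSeq promoter windows of 8 genes, in bases from the annotated transcription start (horizontal axis), with a grey bar for each window. Circles mark the kB consensus and triangles the motif GGAANTTCC; NFKB1 and REL have both within 50 bases upstream of the start, and the 2 windows of RELA have none.

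Of the 9 genes with a probe set, 2 were at least 2-fold higher in spheroids, the subunits REL and RELB, or 22.2% against 2.53% of all genes measured. None of the 9 was at least 2-fold lower, against 3.08% of all genes. The log2 difference was above 0 for 7 genes and under 0 for RELA and ICAM1. Of all genes measured 45.2% were above 0. The median over the 9 genes was 0.52, and that over all measured genes -0.05. Counted by probe set, 16 of the 20 exceeded the floor on either array. Of these, 2 of REL and the one of RELB, 3 in all, were at least 2-fold higher, against 4.13% of all probe sets, and 0 were lower by that amount, against 2.92%. The other 4, one each of NFKB2, REL, NFKBIA and ICAM1, were under the floor on both arrays. With a floor at the 75th percentile of all signals, or with a threshold of 3-fold, 0 genes were counted as higher. That floor left 6 of the 9 genes measured, RELB not among them.

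**Figure D2:**
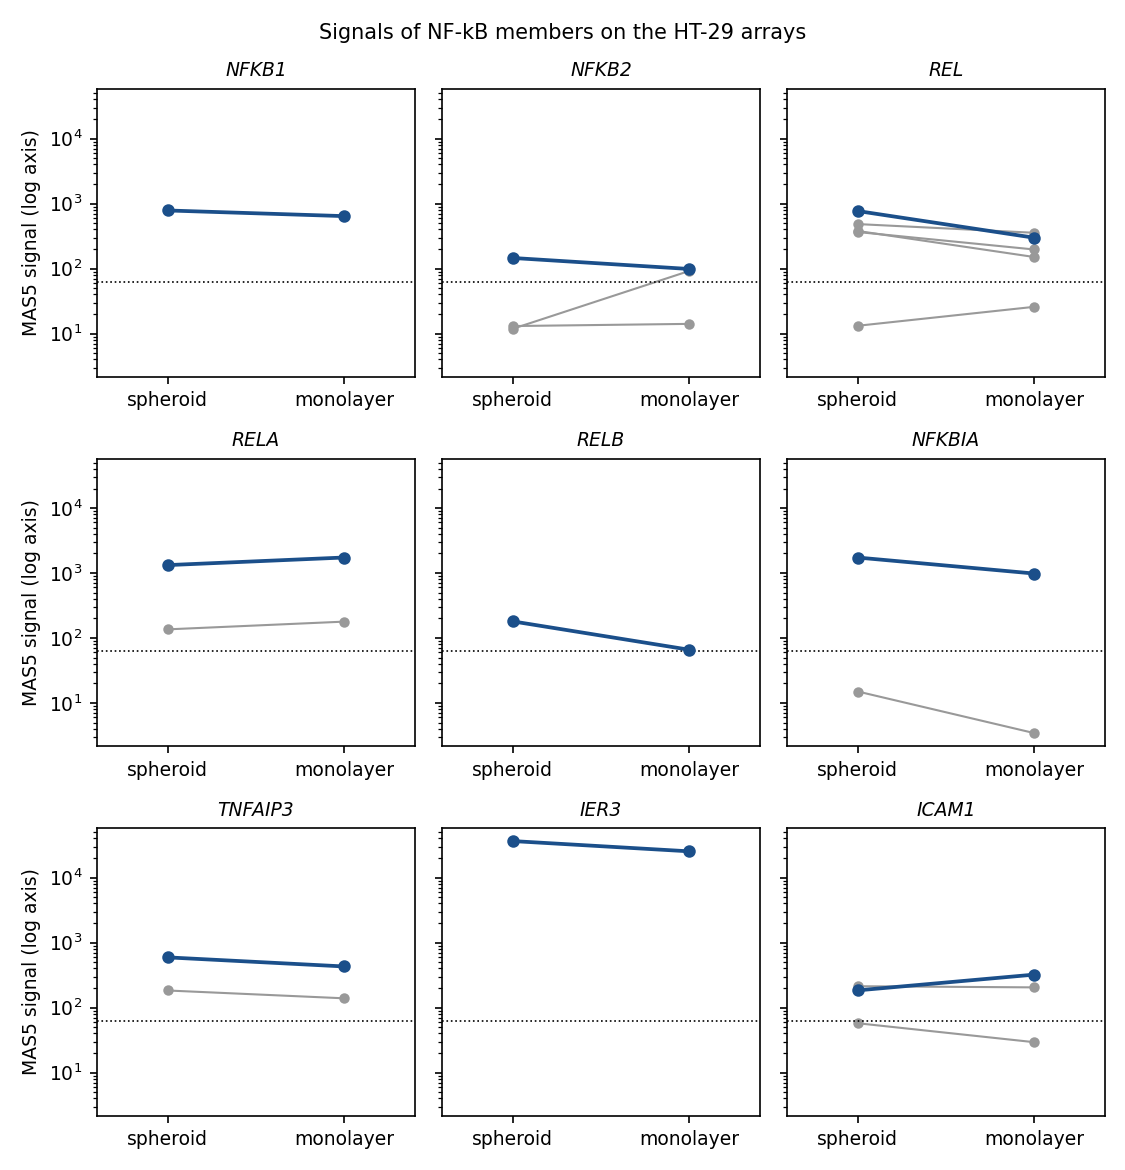
MAS5 signal (log axis) of every probe set of the 9 genes on the HT-29 spheroid array (left) and the monolayer array (right), 1 array per condition. The blue line is each gene's chosen probe set, grey lines are the rest and the dotted line is the floor of 62.7. The blue lines of REL, RELB and NFKBIA slope down towards monolayer, and those of RELA and ICAM1 slope up. A grey line of REL, under the floor, slopes up, and the grey lines of ICAM1 slope down.

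REL, which encodes c-Rel, the subunit best known from lymphocytes, was higher in spheroids by all 4 of its probe sets above the floor. The probe set that stands for it had a signal of 767 in spheroids and 298 in monolayer, 2.57-fold higher. The second gave 379 in spheroids and 150.4 in monolayer (2.52-fold), and the third 365 in spheroids and 196 in monolayer (1.86-fold). The fourth gave 483 in spheroids and 355 in monolayer, 1.36-fold higher. The probe sets thus share a direction but not a size, with log2 differences from 0.44 to 1.36 (SD 0.43, 4 probe sets of the same RNA, which are not replicates). By the probe set that stands for it REL took place 103 from the top among the 13183 genes. Of the 1857 genes with a similar mean signal, within 0.5 on the log2 scale, 2.58% were at least 2-fold higher.

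RELB, which pairs mainly with p52 in the non-canonical branch of the pathway, had the largest difference among the 9 genes. Its only probe set had a signal of 180.5 in spheroids and 66.1 in monolayer, 2.73-fold higher and at place 78 from the top. The monolayer signal lay just above the floor of 62.7 and under 84.7, the 95th percentile over 107 probe sets of olfactory receptors, genes that this epithelium should not express. Against that higher floor RELB was at least 2.13-fold higher. Among the 1808 genes with a similar mean signal 7.3% were at least 2-fold higher, a larger share than around REL, and 9.68% at least 2-fold lower.

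RELA, which encodes p65, the main activating subunit in most cells, was lower in spheroids by both of its probe sets. The one that stands for the gene had a signal of 1325 in spheroids and 1735 in monolayer, 1.31-fold lower, and the other 136 in spheroids and 179 in monolayer, also 1.31-fold lower. Both log2 differences were -0.39. The subunits that share an activation domain therefore had differences of either sign, with REL and RELB above 2-fold and RELA under 0, while the size for RELA was under the SD of 0.41 between probe sets of one gene.

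The genes of the precursors had smaller differences. NFKB1, which encodes p105 and p50, had a signal of 783 in spheroids and 641 in monolayer, a log2 difference of 0.29 by its only probe set. NFKB2, the gene of p100 and p52, had 145 in spheroids and 98.5 in monolayer, a log2 difference of 0.56. Its probe sets did not point one way. A second was under the floor in spheroids, at 11.8, and at 91.7 in monolayer, at least 1.46-fold lower, and the third was under the floor on both arrays. The direction of NFKB2 is therefore not settled by these arrays.

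**Figure D3:**
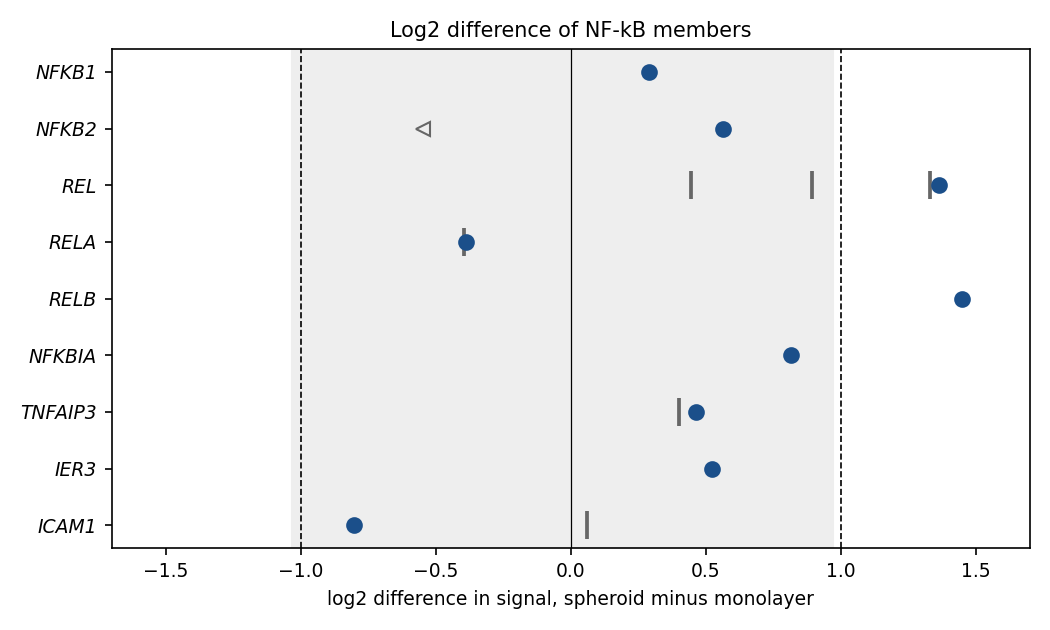
Log2 difference in signal, spheroid minus monolayer, of the 9 genes, 1 array per condition. Dots show each gene's chosen probe set, ticks its further probe sets with both signals above the floor, the open triangle an upper bound, dashed lines a 2-fold difference and the grey band the central 95% of all genes above the floor on both arrays; REL and RELB lie beyond the right dashed line and the band.

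The feedback inhibitors were both higher in spheroids, by less than 2-fold. NFKBIA, the gene of IkB-alpha, which binds the dimers and carries them out of the nucleus, had a signal of 1732 in spheroids and 983 in monolayer. This was 1.76-fold higher, at place 610 from the top, and after spike-in scaling the log2 difference of 0.82 became 1.06 and passed the threshold. A second probe set of NFKBIA was under the floor on both arrays, at 15.0 in spheroids and 3.45 in monolayer. TNFAIP3, which encodes the ubiquitin-editing enzyme A20, an inhibitor of the steps above IKK, had 591 in spheroids and 429 in monolayer by the probe set that stands for it, 1.38-fold higher. Its other probe set gave 183 in spheroids and 139 in monolayer, 1.32-fold higher, a similar size. Both genes have a kB match in the stretches printed above.

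The targets differed in sign. IER3, an early response gene that influences survival under stress, had a signal of 36430.2 in spheroids and 25335 in monolayer, 1.44-fold higher by its only probe set. Of the 143 genes with a similar mean signal 0% were 2-fold higher or lower. ICAM1, the adhesion molecule that leukocytes bind through integrins, had 184 in spheroids and 321 in monolayer by the probe set that stands for it, 1.75-fold lower. The next probe set gave 213 in spheroids and 204 in monolayer, a log2 difference of 0.06, and the third was under the floor on both arrays. The probe sets of ICAM1 thus differed by more than the usual spread, and with the median of its probe sets the log2 difference was -0.37 instead of -0.80.

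**Figure D4:**
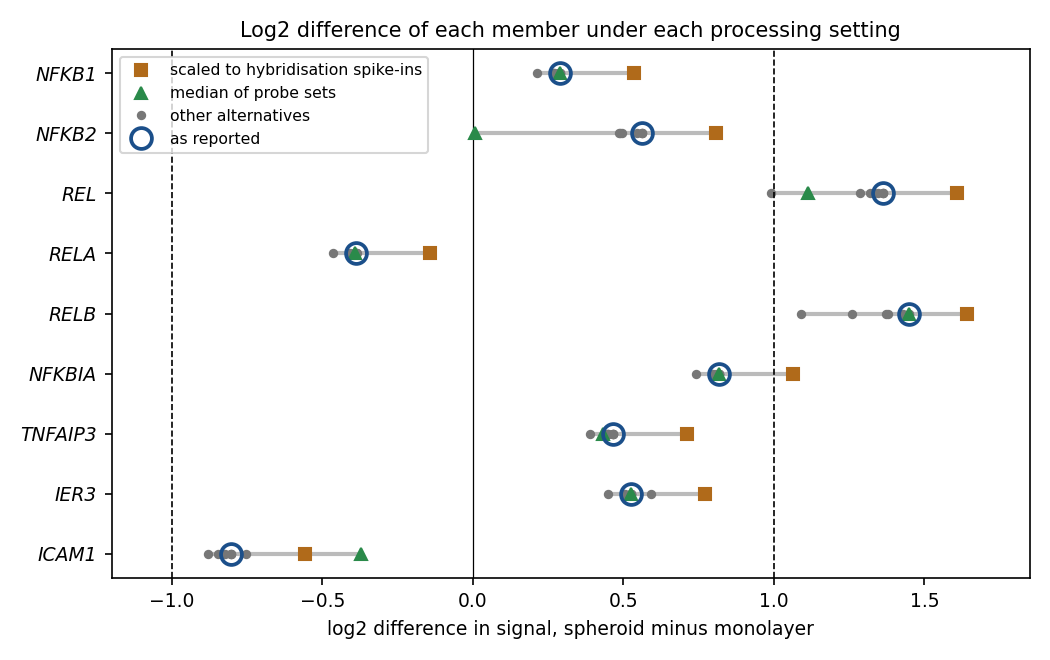
Log2 difference, spheroid minus monolayer, of the 9 genes under each processing setting, 1 array per condition. Large open circles are the values as reported, squares the scaling to hybridisation spike-ins and triangles the median of probe sets. Small dots are the other alternatives and dashed lines a 2-fold difference. None of the 9 genes changes side of 0 under these settings, and NFKB2 comes nearest to it at 0.01. Single probe sets of ICAM1 and NFKB2, not drawn here, lay on either side of 0.

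Beside these genes stand 10 lists of 131 other genes, 9 lists of pathway roles and 1 of genes related to the targets by name or family, chosen with earlier results of the data known. A probe set was assigned to 117 of them, and 94 were above the floor on 1 or both arrays. Of the 94, 3 or 3.19% were at least 2-fold higher in spheroids, against 2.53% of all genes, and 4 or 4.26% at least 2-fold lower, against 3.08%. Their median log2 difference was 0.03. Without the relatives, 84 genes were measured, of which 3 were higher and 3 lower, or 3.57% each, with a median of 0.08. These shares are near the background.

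Upstream, most receptors lay under 0, though not after spike-in scaling, and most kinases above it under either scaling. Of all genes measured 45.2% were above 0 before spike-in scaling, which raised the median over all genes by 0.23. Of 11 measured receptors, by the probe set that stands for each, 8 were under 0 and 1 was at least 2-fold lower. This was TLR5, the receptor for flagellin, with 117 in spheroids and 241 in monolayer, a difference under 2-fold when scaled to the spike-ins. By the probe set with the largest difference CD40 and LTBR were also at least 2-fold lower, against 5.4% of all genes. CD40 ranged from -1.59 to -0.12 over its 4 probe sets. The list's median was -0.29, but 0.00 after spike-in scaling, where 6 of 12 were under 0. NOD2, a sensor of bacterial cell walls, was at 0.70, TNFRSF11A at -0.62, IL1R1 at -0.48 and IL1RAP at -0.45. Of 11 measured kinases 9 were above 0, with a median of 0.27, and 0 were past 2-fold. MAP3K14, the kinase NIK that starts the non-canonical branch in which RELB acts, had the largest difference, with 179.6 in spheroids and 91.5 in monolayer, 1.96-fold higher, and past 2-fold when scaled to the spike-ins. MAP3K8 was at 0.67, TBK1 at 0.61 and CHUK, the gene of IKK-alpha, at 0.36.

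Ligands were mostly under or near the floor. TNF was under it on both arrays, at 4.71 in spheroids and 18.4 in monolayer, and so were IL1A, LTA, TNFSF10 and TNFSF11. IL1B had 75.3 in spheroids and 74.5 in monolayer, and LTB was at 0.40. IL18, a cytokine that epithelium makes constantly, was 2.93-fold lower, with 1257 in spheroids and 3679 in monolayer, the only measured ligand past 2-fold. Among 12 adaptors 0 were past 2-fold, with TRADD at 0.68, MALT1 at -0.59, MYD88 at 0.52 and TRAF5 at 0.51. By probe set TRADD ranged from -0.32 to 0.68 and MALT1 from -0.59 to 0.03.

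The other inhibitors lay on both sides of 0, a split that spike-in scaling changed. Of 12 measured negative regulators of the pathway 5 were above 0 and 7 under 0, by the probe set that stands for each. These values lay within -0.37 and 0.36, where PDLIM2 and TAX1BP1 stood. ZFP36 was at 0.22, and OTULIN at 0.34 and -0.44 by the 2 probe sets with both signals above the floor. TAX1BP1 reached 0.63 by one of its 3 probe sets and lay just under 0 by another. CYLD ran from -0.48 to 1.12 over the 4 probe sets with both signals above the floor, and OTUD7B from -0.23 to 0.78 over 4. CYLD and OTULIN were at least 2-fold higher by the probe set with the largest difference, against 5.96% of all genes. After spike-in scaling, which raised the median over all genes by 0.23, 11 of the 12 negative regulators were above 0. Of the other IkB genes NFKBIZ, a nuclear IkB that works with NF-kB on secondary targets, was at 0.74 by the probe set that stands for it and 1.00 by the other. NFKBIB, which encodes IkB-beta, was at -0.86 and 0.61 by the 2 probe sets with both signals above the floor. NFKBIB and NFKBIZ were at least 2-fold higher by the probe set with the largest difference, against 5.96% of all genes. NFKBIE was at 0.27 and NFKBID at 0.02. The coactivator gene CREBBP was at 0.04, and EP300 at 0.23 and -0.30 by its 2 probe sets.

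Inflammatory targets held most of the larger differences. CXCL8, the neutrophil chemokine, was 9.89-fold higher, with 2671 in spheroids and 270.2 in monolayer, and both of its probe sets were past 2-fold. CXCL2, a related chemokine, had 201.7 in spheroids and 70.8 in monolayer (2.85-fold), and PTGS2, the inducible cyclooxygenase, 206 in spheroids and 81.6 in monolayer (2.53-fold). The monolayer signals of CXCL2, PTGS2 and CXCL10, which was at 0.98, lay under the 84.7 of the olfactory receptors, so that these differences are uncertain in size, and PTGS2 was not past 2-fold with the median of probe sets. PIGR, which carries antibodies across epithelium, was 3.05-fold lower, with 64.0 in spheroids, near the floor, and 195 in monolayer. Of 15 measured genes of the list 3 were thus past the threshold upwards and 1 downwards, against 2.53% and 3.08% of all genes measured. The median was 0.30, and 10 more, such as CCL20, IL6, LCN2 and VCAM1, were under the floor on both arrays. Survival targets were split, with 6 of 12 above 0 and 0 past 2-fold. SOD2, the mitochondrial superoxide dismutase, was at -0.87, BCL2L1 at -0.60, FAS at 0.48 and GADD45B at 0.37. With the median of probe sets BCL2L1 was at least 2-fold lower, against 2.47% of all genes. By the probe set with the largest difference BCL2L1 was also past 2-fold downwards and CFLAR upwards, against 5.4% and 5.96% of all genes.

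**Figure D5:**
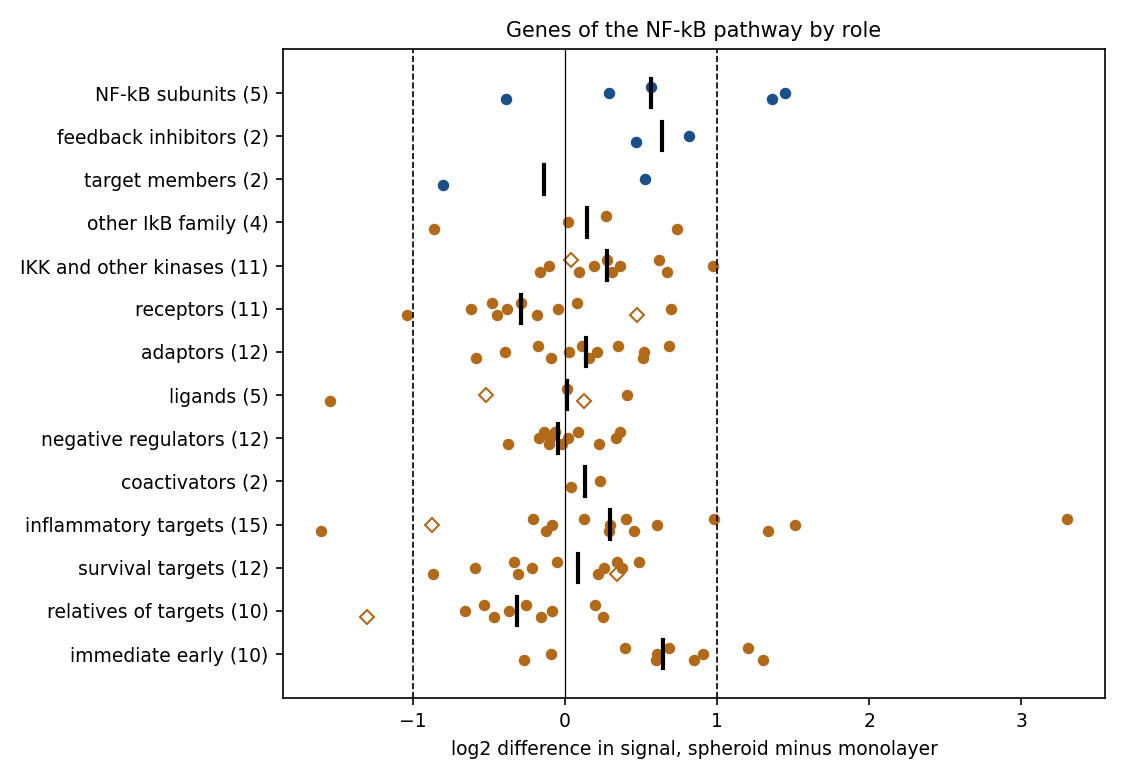
Log2 difference in signal, spheroid minus monolayer, of measured genes by role (number in parentheses), 1 array per condition. The top 3 rows, in blue, are the subunits, feedback inhibitors and targets; filled circles are genes with both signals above the floor, open diamonds bounds, black bars list medians and dashed lines a 2-fold difference; CXCL8 lies farthest right at 3.31 and PIGR farthest left at -1.61.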

How the data were processed

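The authors hybridised RNA of spheroid and monolayer cultures to Human Genome U133 Plus 2.0 arrays and ran MAS5 in the Expression Console of Affymetrix, whose version is not given in the sources used here. The deposited values are linear signal intensities, with no detection calls used. Duplicates are mentioned in the methods, and 1 array of each condition was analysed; whether it pools the duplicates is not known. The number of arrays limits the precision, and no test or p-value was computed. Probe sets were named through the platform annotation, in which 41097 have 1 gene, 1801 several and 11777 are not listed. Symbols were updated by gene number to the GRCh38.p14 RefSeq table, which matched 41043, and promoter sequences came from RefSeq. Computation used Python 3.11.15, numpy 2.4.6, pandas 2.3.3 and matplotlib 3.10.9 and was tested on simulated data. The members and lists were chosen with earlier results of these data known. Named are all members, and of each list of other NF-kB genes, relatives and immediate early genes those past 2-fold and up to 4 with the largest difference above the floor on both arrays; other named genes, cell type markers included, were picked after their values were seen. Alternatives were 4 scalings, other floors, a pseudocount, other choices of probe set and a 3-fold threshold.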

Additional observations from a re-analysis of the deposited data

How the results depend on the processing

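No paired analysis was possible because each condition has 1 array. Of 11 alternatives, 4 changed the scaling (to GAPDH, to the spike-ins, by quantiles or by medians). REL and RELB were at least 2-fold higher under 9 of the 11, and under the floor at the 75th percentile, where REL was at 0.99, and the 3-fold threshold 0 members were higher, with 0 probe sets each. Scaling to the spike-ins gave 5 probe sets at least 2-fold higher in place of 3, and 3 genes in place of 2, NFKBIA added. Without a floor 4 of 20 member probe sets were at least 2-fold higher in place of 3, and 1, of NFKB2, at least 2-fold lower in place of 0. With a pseudocount of 15.9 also 1 member probe set was lower. No share over all probe sets was computed for the alternative settings. Counted by gene and not by probe set, 12.5% of all genes were higher and 12.7% lower without a floor. With the pseudocount these shares were 6.67% and 7.06%. The median of the members ran from 0.43 to 0.77, and its distance from the median of all genes from 0.47 to 0.59. Of 87 values of single genes 85 moved by less than the SD between probe sets. The exceptions, both with the median of probe sets, were ICAM1 (-0.37) and NFKB2 (0.01). Scaling to GAPDH, to the spike-ins or by medians moved every gene that stayed above the floor on both arrays alike, by less than this SD. With the spike-ins the monolayer signal of RELB fell under the floor of that setting, so that its 1.64 is a lower bound. Genes with 1 probe set, such as NFKB1, RELB and IER3, could not change with the choice of probe set. The count therefore had little room to differ and is no measure of stability. No value of a member changed sign under these settings. By single probe sets, though, ICAM1 was at -0.80 and 0.06, and NFKB2 at 0.56 and, as an upper bound, -0.55. Scaling to the spike-ins gave 700 genes higher and 189 lower, in place of 334 and 406. Signals near the floor, as for RELB and NFKB2, limit what these arrays show.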

Other observations

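Relatives of the target genes and immediate early genes were listed beside the members. Of 10 measured relatives 8 were under 0, with a median of -0.32, and -0.07 after spike-in scaling. IER5, another early response gene, was at -0.53 and IER2 at 0.19, where IER3 was at 0.52. ICAM5, an adhesion molecule known from neurons, was under the floor in spheroids, at 11.4, and at 154.8 in monolayer, at least 2.47-fold lower, but under 2-fold against the higher floor of 84.7 set by the olfactory receptors. ICAM3 was at -0.47 and TNFAIP1 at -0.66 by the probe set that stands for it. The other probe set of TNFAIP1 was at -1.03, past 2-fold. BIRC2, the close relative of BIRC3, was at 0.35, with 5382 in spheroids and 4233 in monolayer.

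Of 10 immediate early genes, which growth factors and stress induce within minutes, 8 were above 0, against 45.2% of all genes measured. Their median was 0.64, and 2 were at least 2-fold higher, against 2.53% of all genes. After spike-in scaling 4 were, against 5.29% of all genes, and with the median of probe sets 1, JUN. ATF3 was 2.47-fold higher in spheroids, with 2597 in spheroids and 1052 in monolayer by the probe set that stands for it, and at a log2 difference of 0.35 by its other measured probe set. JUN, a subunit of AP-1, was 2.31-fold higher, with 4396 in spheroids and 1906 in monolayer, and all 4 of its probe sets were past 2-fold. EGR1 was at 0.91 and DUSP1, a phosphatase that limits MAP kinases, at 0.85, while FOSL1 was at -0.27. The part of shared regulators in these differences was not tested.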
